A study of Mus musculus with 12 samples.

Results

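The Egr, Ier and Csrnp1 immediate early genes were followed in macrophages grown from the bone marrow of IRAK4 kinase-dead (KD) and wild-type (WT) mice. The 10 members, Egr1, Egr2, Egr3, Nab1, Nab2, Ier2, Ier3, Ier5, Csrnp1 and Srf, were taken by name, as every probe set annotated with a single gene symbol from that list. They comprised 18 probe sets, out of 45101 on the array, and 10 genes out of 18194 with a symbol of their own. Of these 18 probe sets, 15 passed the filter on dim signals, and every member kept at least 1. IRAK4 is a kinase recruited by the adaptor MyD88 once a Toll-like receptor binds its ligand.

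The 12 arrays formed 6 groups of 2 biological replicates. KD macrophages were left without LPS for 4 h, given LPS for 1 h or given LPS for 4 h, and WT macrophages were treated in the same 3 ways. LPS, the bacterial outer membrane component sensed by Toll-like receptor 4, was used at 1 µg/ml. Every culture, controls included, was supplemented with calf serum and with medium conditioned by L-929 cells, a fibroblast line whose supernatant supplies macrophage colony-stimulating factor. Since the unstimulated cultures lasted 4 h, the 1 h comparisons differ in culture time as well as in LPS. The labels do not describe how the kinase-dead allele was made, and they do not say whether replicates came from separate animals, so p-values cover only the spread between these samples, which may be technical.

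Immediate early genes are transcribed within minutes of a stimulus, without new protein synthesis, and their mRNAs are usually short-lived. Many are switched on when ERK and p38 kinases phosphorylate factors of the Elk family that sit beside serum response factor (Srf) on a DNA element called the CArG box. In macrophages the same kinases are activated by Toll-like receptors, alongside NF-κB. Egr1, Egr2 and Egr3 are zinc finger transcription factors that bind GC-rich sites, and Nab1 and Nab2 are corepressors that bind Egr proteins and limit their activity. Ier2, Ier3 and Ier5 are small proteins named for their early induction, of which Ier3 is known as a target of NF-κB that acts on cell survival. Csrnp1 is a cysteine- and serine-rich nuclear protein.

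Promoter sequences are shown for 4 members with a window that held the element chosen to be marked for that member. RefSeq windows of assembly GRCm38.p6, from 250 bases before to 50 bases after a transcription start, were used for 7 members (14 windows). Egr1 was left out of the search, and no window was available for Egr3 and Ier2, so these members are named only. The printed stretches are the 250 bases before the start, 5′ to 3′ on the strand of the gene. Capitals mark CArG boxes in Egr2 and Srf, the κB consensus in Ier3 and the AP-1 letters TGANTCA in Csrnp1. The annotated loci of Egr2, Csrnp1 and Srf also extend upstream of these starts, so some of these bases can lie within longer transcripts.
Egr2, chr10:67537316-67537565, plus strand: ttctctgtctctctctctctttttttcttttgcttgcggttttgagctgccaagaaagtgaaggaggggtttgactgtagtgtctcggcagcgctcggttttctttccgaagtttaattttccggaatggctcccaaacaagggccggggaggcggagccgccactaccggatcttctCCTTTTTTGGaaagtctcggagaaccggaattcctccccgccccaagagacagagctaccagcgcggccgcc
Egr2, chr10:67537619-67537868, plus strand: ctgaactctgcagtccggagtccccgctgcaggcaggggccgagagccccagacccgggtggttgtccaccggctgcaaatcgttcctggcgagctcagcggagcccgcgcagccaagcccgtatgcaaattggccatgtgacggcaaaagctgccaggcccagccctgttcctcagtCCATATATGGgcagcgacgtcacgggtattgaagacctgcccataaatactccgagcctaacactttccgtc
Srf, chr17:46556163-46556412, minus strand: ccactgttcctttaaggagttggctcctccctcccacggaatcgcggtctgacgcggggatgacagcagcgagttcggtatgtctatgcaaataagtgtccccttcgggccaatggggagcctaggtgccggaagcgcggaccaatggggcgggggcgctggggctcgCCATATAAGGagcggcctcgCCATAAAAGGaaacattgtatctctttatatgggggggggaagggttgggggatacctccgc
Ier3, chr17:35821463-35821712, plus strand: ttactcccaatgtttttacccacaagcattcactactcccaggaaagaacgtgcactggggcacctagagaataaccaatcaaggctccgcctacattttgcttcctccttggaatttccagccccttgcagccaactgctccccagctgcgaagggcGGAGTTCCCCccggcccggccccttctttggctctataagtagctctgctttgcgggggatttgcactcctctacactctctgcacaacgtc
Csrnp1, chr9:119983024-119983273, minus strand: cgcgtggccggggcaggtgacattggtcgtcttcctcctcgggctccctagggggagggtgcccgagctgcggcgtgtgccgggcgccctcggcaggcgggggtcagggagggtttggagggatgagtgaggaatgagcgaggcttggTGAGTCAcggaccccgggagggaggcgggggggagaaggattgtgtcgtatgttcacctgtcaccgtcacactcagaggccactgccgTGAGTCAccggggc

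Both strands were searched. CArG boxes were found at chr10:67537494-67537503 and chr10:67537797-67537806 upstream of Egr2, in different windows, and at chr17:46556235-46556244 and chr17:46556215-46556224 upstream of Srf. Of all 32851 windows in the table, 1.63% held a CArG box. The κB consensus stood at chr17:35821621-35821630 in the Ier3 window, at 1 position in the Nab1 window and at 2 overlapping positions in the most upstream Egr2 window (8.46% of all windows). AP-1 letters were found in 1 of the Csrnp1 windows, at chr9:119983119-119983125 and chr9:119983031-119983037 (7.81% of all windows). The Ets core CCGGAA was present in 1 Egr2 window and in the Srf window (14.9% of all windows), and the Egr core GTGGGCG in 1 Egr2 window and the Nab1 window (7.97%). The cyclic AMP response element core TGACG was present in 3 of the 5 Egr2 windows, the Nab1 window, all 4 Csrnp1 windows and the Srf window (20.8%). None of the 6 searched motifs was matched in the Nab2 or Ier5 windows. A match is a description of letters and does not show binding.

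The signals are MAS5 intensities, which are linear and have no common scale between probe sets, so levels are compared within a probe set only. A total of 27931 probe sets, standing for 12914 genes with 1 symbol, were tested. Log2 changes were computed on log2(signal + 4.4), were tested with limma, and were called at an adjusted p under 0.05 (Benjamini-Hochberg over all tested probe sets). Errors are standard errors of the fit (SE) unless given as SD. Each gene was represented by 1 probe set, and the others are described where they disagree.

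Macrophage markers stood out in every culture: 10 to 12 of 12 such as Csf1r and Cd68 were above the array median. Without LPS their summed signal was 24630 to 28710 in KD and 20760 to 21300 in WT, with no overlap. At 1 h it was 26810 to 26920 in KD and 23190 to 26170 in WT, and at 4 h 23430 to 24800 in KD and 23850 to 25440 in WT. Other lists covered lymphocytes (T, NK and B cells), neutrophils, dendritic cells, mast cells with basophils, and erythroid cells. On any array each of them had at most 2 markers above the median, and no marker was listed at 0. Camp of the neutrophil list was above the median on 10 of 12 arrays, and Zbtb46 of the dendritic list on 11. From 1 h to 4 h Zbtb46 rose by 1.33 ± 0.35 in WT (adjusted p = 0.0114). Stromal markers were an exception, with 9 to 10 of 12 above the median, though Lum and Thy1 were at 14.5 or less on every array. Their summed signal was 2528 and 2957 in KD without LPS, against 4971 and 5163 in WT without LPS. At 1 h it was 4183 to 5048 in KD and 5523 to 5610 in WT, and at 4 h it was 4414 to 4741 in KD and 3803 to 4235 in WT. Array medians were 24.2 to 26.9 in KD and 18.9 to 22 in WT. KD unstimulated replicate 1 had the highest 3′ to 5′ log2 ratio of the Actb control probe sets, 3.03, against 2.21 to 2.83 on the other 11 arrays.

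Egr1 and Egr3 showed the classical pulse in both strains, high at 1 h and back near the starting level at 4 h. In KD macrophages Egr1 signal was 545 and 335 without LPS, 3371 and 3285 at 1 h, and 521 and 639 at 4 h. WT macrophages gave 438 and 467 without LPS, 4917 and 5511 at 1 h, and 642 and 596 at 4 h. All 1 h arrays lay far above every array of the other times. The log2 change at 1 h over no LPS was 2.95 ± 0.16 in KD (adjusted p = 3e-10) and 3.51 ± 0.16 in WT (adjusted p = 1.6e-11). Among 12914 genes ordered from the highest increase, Egr1 ranked 16 in KD and 16 in WT.

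Between 1 h and 4 h Egr1 fell by 2.52 ± 0.16 in KD and fell by 3.06 ± 0.16 in WT (adjusted p = 5.48e-09 and 1.19e-10). Counted from the largest decrease among all genes, it ranked 10 in KD and 4 in WT. Against no LPS, the 4 h log2 difference was 0.43 ± 0.16 in KD (adjusted p = 0.104) and 0.45 ± 0.16 in WT (adjusted p = 0.0628). With 1 array omitted in turn, the KD difference was 0.08 to 0.78. It was highest without KD unstimulated replicate 1, the array with the high Actb ratio. The WT difference had an adjusted p of 0.00682 without that array, 0.00655 without KD unstimulated replicate 2 and 0.0136 on the WT arrays of the comparison alone.

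Egr3 followed the same course. KD arrays read 42.4 and 44.5 without LPS, 362 and 292 at 1 h, and 65.9 and 51.6 at 4 h. WT arrays read 46.2 and 56.9 without LPS, 285 and 335 at 1 h, and 61.6 and 57.2 at 4 h. Here the 1 h signals of the strains overlapped. Egr3 rose by 2.79 ± 0.22 in KD and 2.49 ± 0.22 in WT on the log2 scale (adjusted p = 9.45e-08 and 4.26e-07). It fell by 2.39 ± 0.22 in KD and fell by 2.30 ± 0.22 in WT between 1 h and 4 h (adjusted p = 6.17e-07 and 4.49e-07). The second Egr3 probe set, 1421486_at, was not tested because its signal, 1.7 to 9, never passed the array median.

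Egr2 had a different course in each strain. In KD cells it stood at 2459 and 2449.9 without LPS, 2438 and 2387 at 1 h, and 1808 and 1582 at 4 h. In WT cells it stood at 1837 and 1660.1 without LPS, 3063 and 3239.6 at 1 h, and 1629 and 1669 at 4 h. KD cells thus began at a high signal that did not differ beyond its error at 1 h, and WT cells gave a brief peak from a lower start.

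At 1 h the Egr2 log2 change was -0.03 ± 0.09 in KD (adjusted p = 0.927; 95% interval -0.21 to 0.16), whereas it rose by 0.85 ± 0.09 in WT (adjusted p = 3.89e-06). After 4 h of LPS Egr2 fell by 0.54 ± 0.09 in KD against no LPS (adjusted p = 0.000425), with a difference of -0.08 ± 0.09 in WT (adjusted p = 0.615). Between 1 h and 4 h it fell by 0.51 ± 0.09 in KD and fell by 0.93 ± 0.09 in WT (adjusted p = 0.000891 and 4.18e-07). Ordered by group mean, WT at 1 h was highest, followed by KD without LPS and KD at 1 h, which did not differ by the test. WT without LPS, KD at 4 h and WT at 4 h came last, and the tests between WT at 4 h and WT without LPS and between KD and WT at 4 h were not passed. The decreases in KD were not called with a variance prior without a trend (adjusted p = 0.0527 for 4 h over no LPS and 0.0716 for 4 h over 1 h).

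A second Egr2 probe set, 1427683_at, showed the same shape. It read 2102 and 2046 in KD without LPS, 1963 and 1883 at 1 h, and 1268 and 1279.8 at 4 h. In WT it read 1147 and 1091 without LPS, 2519 and 2759 at 1 h, and 1230.0 and 1111 at 4 h. Its log2 change at 1 h was -0.11 ± 0.09 in KD (adjusted p = 0.602) and 1.23 ± 0.09 in WT (adjusted p = 2.53e-08).

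**Figure D1:**
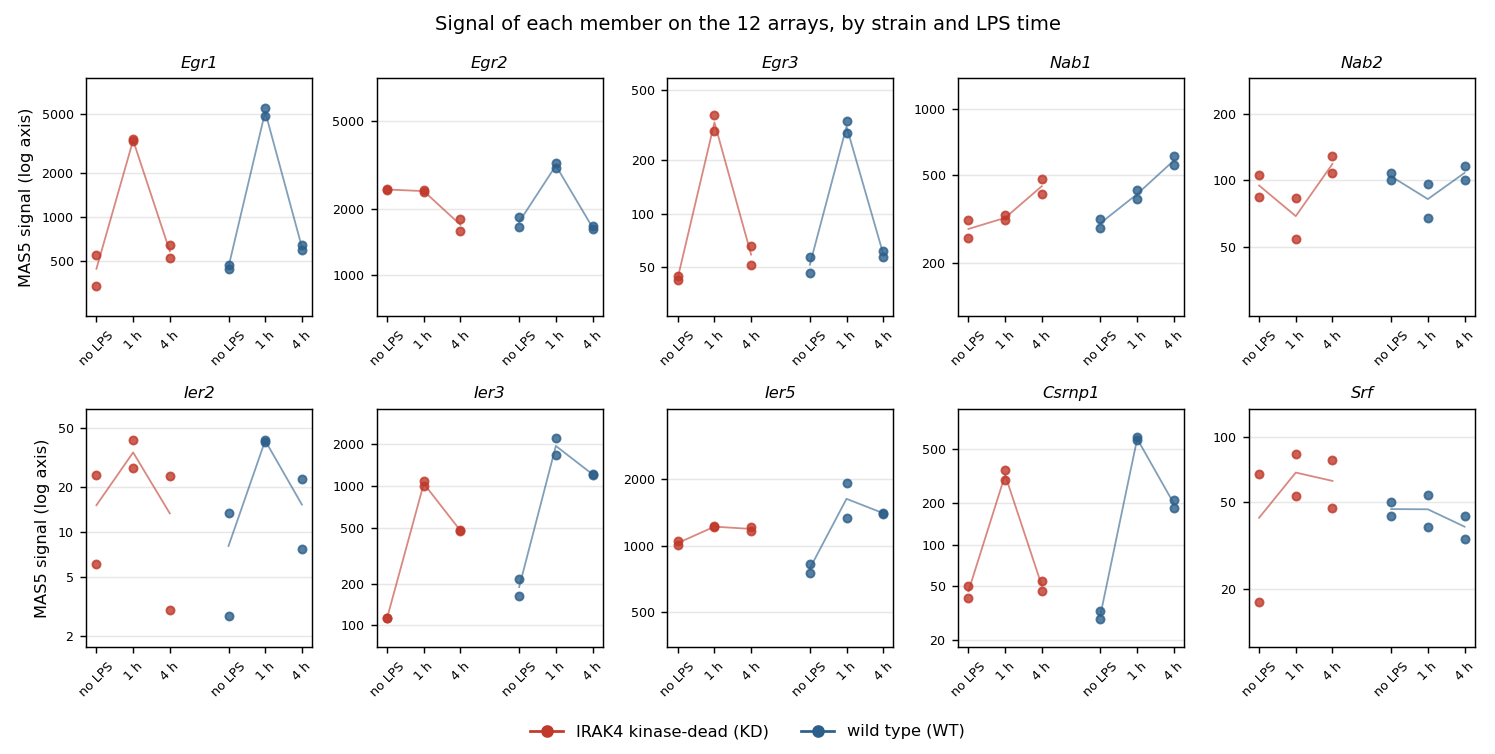
MAS5 signal (log axis) of the probe set that represents each member on the 12 arrays, with KD left of WT in every panel and no LPS, 1 h and 4 h of LPS from left to right. Points are arrays and lines join group means; Egr1 and Egr3 peak at 1 h in both strains, Egr2 peaks at 1 h in WT, and Csrnp1 is back at 45.8 and 54.6 in KD at 4 h but at 212 and 186 in WT.

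The Egr corepressors moved later or little. Nab1 signal was 312 and 258 in KD without LPS, 312 and 328 at 1 h, and 411 and 481 at 4 h. WT gave 318 and 288 without LPS, 430 and 391.8 at 1 h, and 612 and 555 at 4 h. The 4 h arrays were highest in each strain. Nab1 rose by 0.64 ± 0.14 in KD and by 0.94 ± 0.14 in WT at 4 h over no LPS (adjusted p = 0.00486 and 6.74e-05). At 1 h its change of 0.17 ± 0.14 in KD and 0.43 ± 0.14 in WT was not called (adjusted p = 0.592 and 0.0787). The KD call at 4 h was lost without KD unstimulated replicate 2 (0.51, adjusted p = 0.0712), without KD LPS 4 h replicate 2 (0.53, adjusted p = 0.0844) and with a variance prior without a trend (adjusted p = 0.0567).

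From 1 h to 4 h Nab1 rose by 0.47 ± 0.14 in KD and 0.50 ± 0.14 in WT (adjusted p = 0.0439 and 0.0183). The KD call was lost without any 1 of the 4 KD LPS arrays, where the change was 0.36 to 0.58, and without any 1 of the WT unstimulated or WT LPS 4 h arrays (0.47 each). The WT call was lost without WT LPS 1 h replicate 2 (0.44, adjusted p = 0.128) and without WT LPS 4 h replicate 1 (0.43, adjusted p = 0.157). With probe set means the WT change was 0.28 (adjusted p = 0.374), and with a variance prior without a trend its adjusted p was 0.0813. In KD the call was also lost after quantile normalization, with no filter, with no trend, on the arrays of the comparison alone and with probe set means (0.44 to 0.57, adjusted p = 0.0537 to 0.152). A second probe set, 1448781_at, ranged from 15.8 to 88.5 and was called in none of the 11 comparisons. Probe set 1438819_at was not tested and read 1.5 and 2 in KD without LPS and 8.4 to 22.9 on the other 10 arrays.

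Nab2 was called in no comparison of the main fit. Its signal was 105.4 and 83.9 in KD without LPS, 83.2 and 54.2 at 1 h, and 129 and 108 at 4 h. In WT it was 108 and 100.4 without LPS, 67.7 and 96.5 at 1 h, and 116 and 100.3 at 4 h. The lowest arrays in each strain were at 1 h. The log2 change at 1 h was -0.46 ± 0.25 in KD and -0.35 ± 0.25 in WT (adjusted p = 0.367 and 0.523), and from 1 h to 4 h it was 0.78 ± 0.25 in KD (adjusted p = 0.0643) and 0.40 ± 0.25 in WT (adjusted p = 0.341). With 1 array omitted in turn, the KD change from 1 h to 4 h was 0.485 to 1.065, and the highest value, without KD LPS 1 h replicate 1, passed the threshold. That change was also called with a stricter filter (adjusted p = 0.0445) and with probe set means (adjusted p = 0.0475).

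Ier3 rose in both strains at 1 h and was still above its start at 4 h. KD macrophages gave 112 and 114 without LPS, 1001 and 1085 at 1 h, and 485 and 474 at 4 h. WT macrophages gave 216 and 162 without LPS, 1661 and 2227 at 1 h, and 1223 and 1209 at 4 h. In each condition both KD arrays lay under both WT arrays. Ier3 rose by 3.16 ± 0.15 in KD and 3.33 ± 0.15 in WT at 1 h (adjusted p = 2.99e-11 and 1.01e-11), ranking 11 in KD and 20 in WT among all increases. At 4 h over no LPS it rose by 2.04 ± 0.15 in KD and 2.67 ± 0.15 in WT (adjusted p = 9.99e-09 and 9.25e-11). Between 1 h and 4 h it fell by 1.11 ± 0.15 in KD and fell by 0.66 ± 0.15 in WT (adjusted p = 4.63e-05 and 0.00372). The WT change was -0.45 without WT LPS 1 h replicate 2, the brighter of the pair, and was then not called (adjusted p = 0.0997).

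Ier5, known to interact with heat shock factor, passed the test in WT and not in KD, while the difference between those responses did not pass it. Its main probe set read 1046 and 1008 in KD without LPS, 1214 and 1224 at 1 h, and 1167 and 1213 at 4 h. WT arrays read 751 and 824 without LPS, 1922 and 1339.6 at 1 h, and 1398 and 1408 at 4 h. Without LPS both KD arrays were above both WT arrays, and at 1 h and 4 h both were below. The log2 change was 0.25 ± 0.13 in KD at 1 h and 0.21 ± 0.13 at 4 h (adjusted p = 0.327 and 0.364). Ier5 rose by 1.02 ± 0.13 in WT at 1 h and by 0.83 ± 0.13 at 4 h (adjusted p = 2.98e-05 and 8.11e-05). Its other tested probe sets were called in no comparison: 1417613_at read 4.6 to 41 and 1460009_at read 83.7 to 124. Between 1 h and 4 h the WT change was -0.19 ± 0.13 (adjusted p = 0.361), and -0.45 to 0.067 with 1 array omitted in turn. The lowest value, without WT LPS 1 h replicate 2, passed the threshold. With the mean of the 3 probe sets, the WT change at 1 h was 0.50 (adjusted p = 0.307).

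Ier2 was measured near the bottom of the scale. It read 6.1 and 24.2 in KD without LPS, 27 and 41.7 at 1 h, and 23.7 and 3 at 4 h. In WT it read 2.7 and 13.4 without LPS, 40.6 and 41.9 at 1 h, and 22.9 and 7.7 at 4 h. The 1 h arrays were highest in each strain, yet replicates at the other times differed several-fold. Its log2 change at 1 h was 1.14 ± 0.71 in KD and 2.02 ± 0.71 in WT (adjusted p = 0.453 and 0.112), so no change of Ier2 was shown. A change as large as 2.63 in KD or 3.52 in WT was within the 95% intervals.

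Csrnp1 peaked in both strains and stayed above its start at 4 h in WT. Signals in KD were 50.2 and 41.1 without LPS, 297 and 348 at 1 h, and 45.8 and 54.6 at 4 h. WT signals were 28.7 and 33 without LPS, 577 and 609 at 1 h, and 212 and 186 at 4 h. In KD the 4 h arrays overlapped the unstimulated ones, while in WT every 4 h array lay above every unstimulated one. Csrnp1 rose by 2.71 ± 0.20 in KD and 4.08 ± 0.20 in WT at 1 h (adjusted p = 3.18e-08 and 5.35e-11), ranking 23 in KD and 7 in WT. Against no LPS, the 4 h log2 change was 0.13 ± 0.20 in KD (adjusted p = 0.788; 95% interval -0.29 to 0.55), and the gene rose by 2.53 ± 0.20 in WT (adjusted p = 1.98e-08). From 1 h to 4 h it fell by 2.58 ± 0.20 in KD and fell by 1.55 ± 0.20 in WT (adjusted p = 6.03e-08 and 1.52e-05). That decrease ranked 9 from the largest in KD and 235 in WT. A second probe set, 1433000_at, read 1.9 to 19.1 and was not tested.

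Srf, the factor that binds CArG boxes, was called in no comparison of the main fit. Its main probe set, 1418256_at, read 17.4 and 67.6 in KD without LPS, 83.6 and 53.5 at 1 h, and 78.3 and 47.2 at 4 h. WT gave 50.1 and 43.1 without LPS, 38.7 and 54.3 at 1 h, and 34 and 43.4 at 4 h. The KD replicates spread widely, with KD unstimulated replicate 1 the lowest of the 12 arrays. The log2 change at 1 h was 0.85 ± 0.44 in KD and -0.02 ± 0.44 in WT (adjusted p = 0.331 and 0.991). It was -0.01 in KD without KD unstimulated replicate 1 and 1.71 (adjusted p = 0.0253) without KD unstimulated replicate 2. At 4 h over no LPS it was 0.72 ± 0.44 in KD (adjusted p = 0.374), and -0.14 to 1.58 with 1 array omitted in turn. The highest value, without KD unstimulated replicate 2, passed the threshold. A second probe set, 1418255_s_at, ranged from 146.6 to 207.7 on all arrays and was called in none of the 11 comparisons; its 1 h change was 0.21 ± 0.17 in KD and 0.24 ± 0.17 in WT (adjusted p = 0.602 and 0.509).

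**Figure D2:**
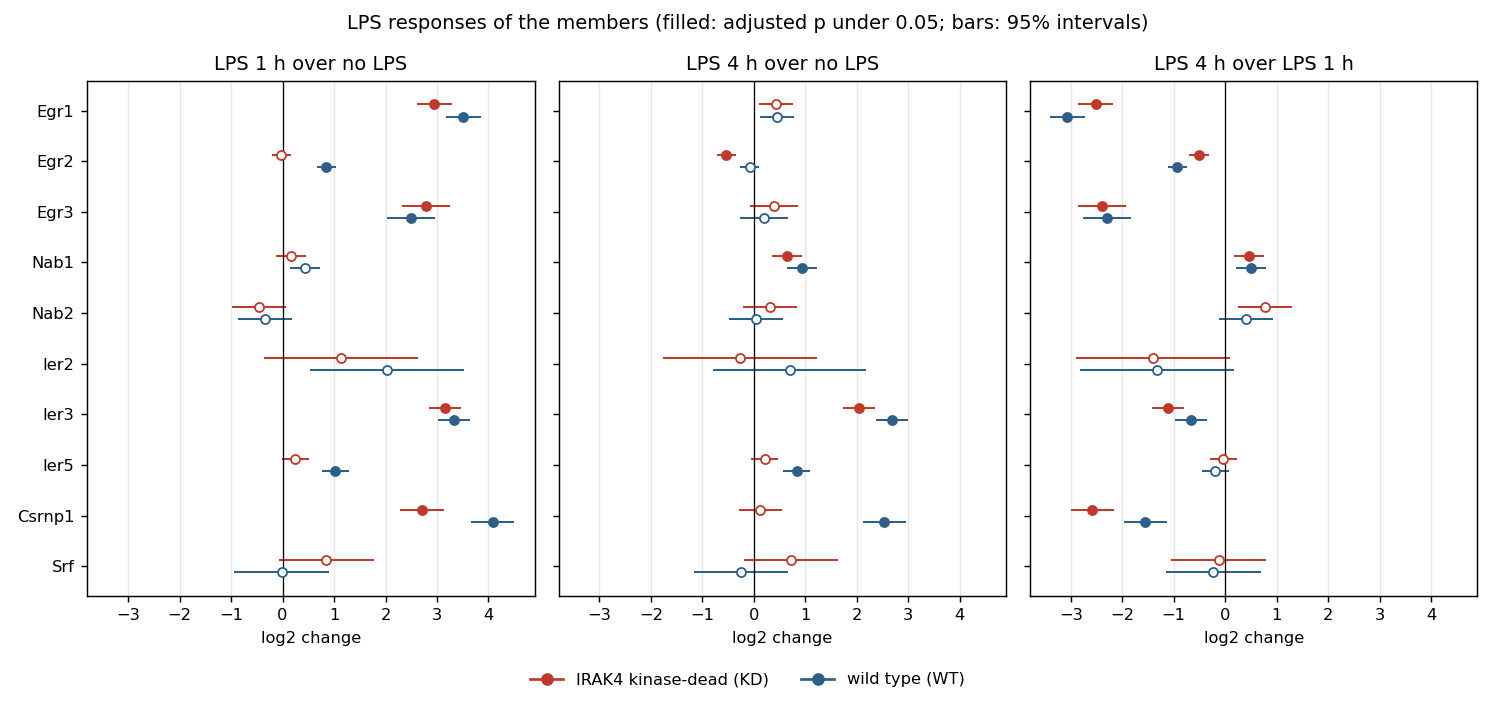
Log2 change of each member, KD above WT, for 1 h over no LPS, 4 h over no LPS and 4 h over 1 h. Bars are 95% intervals and filled points had an adjusted p under 0.05; Egr1, Egr3, Ier3 and Csrnp1 rose at 1 h in both strains, and at 4 h Csrnp1 stood at 0.13 in KD and 2.53 in WT.

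Counted over the members, 4 of 10 rose and 0 fell in KD at 1 h (Egr1, Egr3, Ier3 and Csrnp1), where 6.69% of all genes were called, 3.68% higher and 3.01% lower. In WT at 1 h 6 rose and 0 fell (the same 4 with Egr2 and Ier5), where 7.18% were called, 3.29% higher and 3.89% lower. The median log2 change of the members was 0.99 in KD and 1.52 in WT, against -0.02 and -0.03 for all genes. The KD median lay between Srf (0.85) and Ier2 (1.14), and the WT median between Ier5 (1.02) and Ier2 (2.02). Of these changes only that of Ier5 was called, and Ier2 read near the bottom of the scale. At 4 h over no LPS, Nab1 and Ier3 rose and Egr2 fell in KD, where 12.6% of genes were called, 6.42% higher and 6.22% lower, with medians of 0.35 for the members and -0.06 for all genes. In WT, 4 members rose at 4 h (Nab1, Ier3, Ier5 and Csrnp1) and 0 fell, where 20.8% were called, 7.81% higher and 13% lower, with medians of 0.57 and -0.15. From 1 h to 4 h, 5 members fell and 1 rose in each strain. The 5 were Egr1, Egr2, Egr3, Ier3 and Csrnp1, and the 1 was Nab1. Of all genes 10.7% were called in KD, 4.84% lower and 5.82% higher. In WT 19.3% were called, 11.3% lower and 8.04% higher. The median log2 change was -0.81 in KD and -0.80 in WT for the members and -0.05 and -0.12 for all genes. Of 10 stromal markers, 4 were higher and 0 lower in KD at 1 h over no LPS, and 1 was higher and 0 lower in WT. At 4 h over no LPS, 4 were higher and 0 lower in KD, and 0 higher and 2 lower in WT. Over 1 h, the 4 h cultures had 0 higher and 1 lower in KD, and 0 higher and 3 lower in WT. Of 12 macrophage markers, 0 were higher and 3 lower in KD at 4 h over no LPS, and 2 higher and 2 lower in WT. The part of either list in the members' changes was not tested. Comparisons within a strain share arrays, and each is given by its own values.

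Strain differences without LPS were found for Egr2 and Ier3. Egr2 was higher in KD by 0.49 ± 0.09 (adjusted p = 0.00314), and Ier3 was lower in KD, with a log2 difference of -0.70 ± 0.15 (adjusted p = 0.00811). So 1 of 10 members was higher and 1 lower, where 6.09% of genes were called, 2.59% higher and 3.5% lower. The second Egr2 probe set gave 0.89 ± 0.09 (adjusted p = 1.57e-05). Stromal markers moved in the same comparison: 0 of 10 tested were higher and 6 lower in KD. Macrophage markers moved too, with 3 of 12 higher (Lyz2 by 0.50, Csf1r by 0.44 and Cd14 by 0.39) and Mrc1, the mannose receptor, lower (-1.21 ± 0.14, adjusted p = 5.33e-05). The part of both lists in the Egr2 and Ier3 differences was not tested, and in bulk RNA fewer cells of a type and less RNA per cell cannot be told apart. The Ier3 difference was -0.50 without WT unstimulated replicate 1 (adjusted p = 0.186), and Egr2 had an adjusted p of 0.148 and Ier3 of 0.159 with a variance prior without a trend. Csrnp1 (0.50 ± 0.20, adjusted p = 0.18) and Ier5 (0.38 ± 0.13, adjusted p = 0.0926) were not called. Without WT LPS 1 h replicate 1 or 2, Ier5 had an adjusted p of 0.0214 or 0.0205.

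After 1 h of LPS, 3 of 10 members were lower in KD and 0 higher, where 1.57% of genes were called, 0.829% lower and 0.743% higher. These were Ier3 (-0.88 ± 0.15, adjusted p = 0.00373), Csrnp1 (-0.87 ± 0.20, adjusted p = 0.0396) and Egr2 (-0.38 ± 0.09, adjusted p = 0.0427). Egr1, at 3371 and 3285 in KD and 4917 and 5511 in WT, differed by -0.65 ± 0.16 and missed the threshold (adjusted p = 0.0566; 95% interval -0.98 to -0.31). For Egr3 the difference was 0.07 ± 0.22 (adjusted p = 0.936; 95% interval -0.39 to 0.54). The median difference was -0.37 for the members and 0.04 for all genes. In the same comparison 3 of 10 stromal markers were lower (Postn by -2.09, Dcn by -2.04 and Col1a1 by -0.70) and 1 higher, and 1 of 12 macrophage markers was lower (Mrc1, -1.06). Their part in the members' differences was not tested.

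The differences of Ier3, Csrnp1 and Egr2 at 1 h kept their sign in all alternatives run, but not all of their calls held. All of these calls were lost without KD LPS 1 h replicate 1, and all were lost without WT LPS 1 h replicate 2. The Csrnp1 and Egr2 calls were also lost without KD LPS 1 h replicate 2, WT LPS 1 h replicate 1 or either WT LPS 4 h array. No member was called (0) when the variance prior had no trend. The Ier3 call was lost without KD LPS 1 h replicate 1 (-0.82, adjusted p = 0.0697) or WT LPS 1 h replicate 2 (-0.67, adjusted p = 0.0905). With 1 of the 12 arrays omitted in turn, Csrnp1 was not called in 6 of them (-0.98 to -0.76) and Egr2 in 8 (-0.42 to -0.34). Egr1, conversely, was called without either KD unstimulated array (adjusted p = 0.00438 and 0.00419) and after quantile normalization (-0.68, adjusted p = 0.0469). Ier5 differed by -0.40 ± 0.13 and was not called (adjusted p = 0.165). With 1 array omitted in turn it differed by -0.66 to -0.14, the most without WT LPS 1 h replicate 2. In that fit Ier5 passed the threshold, with the other WT LPS 1 h array alone in its group. Its other tested probe sets gave 0.476 ± 0.76 and 0.085 ± 0.207, not called.

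After 4 h the strains differed in Csrnp1 and Ier3. Csrnp1 was lower in KD, with a log2 difference of -1.90 ± 0.20 (adjusted p = 7.93e-06) that ranked 29 from the lowest of 12914 genes. Ier3 differed by -1.34 ± 0.15 (adjusted p = 1.35e-05). Both calls held whichever of the 12 arrays was omitted. So 2 of 10 members were lower and 0 higher in KD, where 6.91% of genes were called, 2.61% lower and 4.31% higher. The median difference was -0.17 for the members and 0.10 for all genes. Of the stromal markers 2 of 10 were higher and 1 lower, and of the macrophage markers 1 of 12 was higher and 1 lower, and their part was not tested. Egr1, Egr2 and Egr3 differed by -0.10 ± 0.16, 0.04 ± 0.09 and -0.02 ± 0.22 at 4 h (adjusted p = 0.8, 0.88 and 0.975), with 95% intervals of -0.43 to 0.23, -0.15 to 0.22 and -0.49 to 0.44.

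**Figure D3:**
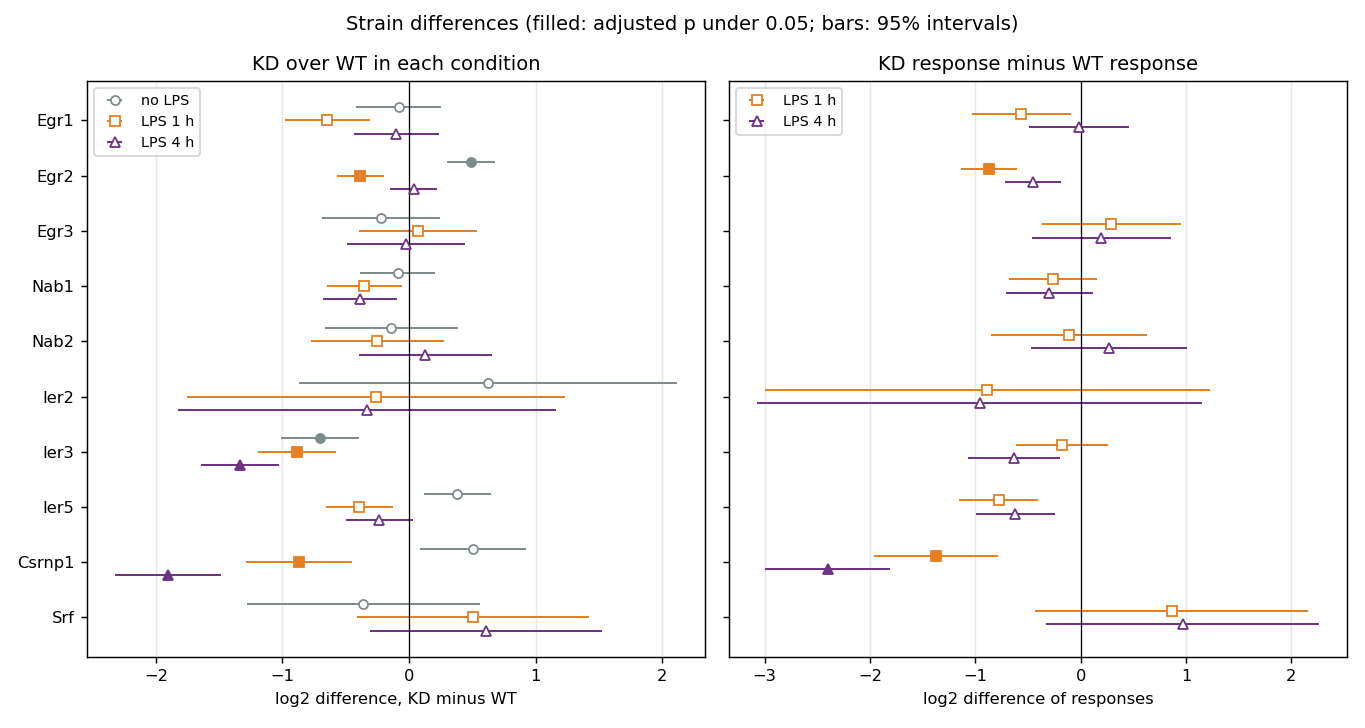
Left, log2 difference of KD minus WT for each member without LPS and at 1 h and 4 h; right, difference of the LPS responses, KD minus WT. Bars are 95% intervals and filled points had an adjusted p under 0.05; Ier3 is filled in all 3 conditions, and Csrnp1 has the lowest values at 4 h, -1.90 and -2.40.

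The difference between the responses themselves was tested as an interaction. At 1 h, 2 of 10 members had a smaller response in KD and 0 a larger one, where 0.449% of genes were called, 0.201% lower and 0.248% higher. Egr2 had an interaction of -0.87 ± 0.13 (adjusted p = 0.00511), and its second probe set gave -1.34 ± 0.13 (adjusted p = 6.54e-05). Csrnp1 had -1.37 ± 0.28 (adjusted p = 0.0414), and it was not called after omitting 10 of the 12 arrays, each in turn (-1.49 to -1.24). Omitting KD unstimulated replicate 2 or KD LPS 4 h replicate 1 kept the call. The Egr2 call held whichever array was omitted and was lost with a variance prior without a trend (adjusted p = 0.361). Ier5 had -0.78 ± 0.18 (adjusted p = 0.0702) and was called with the stricter filter (adjusted p = 0.0497). With 1 array omitted in turn it lay between -1.04 and -0.52. The lowest value, without WT LPS 1 h replicate 2, passed the threshold. Egr1 had -0.56 ± 0.22 (adjusted p = 0.343). Its value with 1 array omitted lay between -0.91 and -0.21, and the lowest, without KD unstimulated replicate 2, passed the threshold. Ier3 and Egr3, at -0.18 ± 0.21 and 0.29 ± 0.31, had adjusted p of 0.83 and 0.811, with 95% intervals of -0.62 to 0.26 and -0.37 to 0.95. The median was -0.41 for the members and 0.01 for all genes. Of the stromal markers 1 of 10 was called, higher, and of the macrophage markers 0 of 12.

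At 4 h only Csrnp1 of the 10 members was called, with an interaction of -2.40 ± 0.28 (adjusted p = 0.000128), where 3.94% of genes were called, 1.38% lower and 2.56% higher. It ranked 36 from the lowest of all genes and was called in every alternative. Over those alternatives its value lay between -2.54 and -1.94, and the highest adjusted p was 0.0402.

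Ier5 (-0.62 ± 0.18), Egr2 (-0.45 ± 0.13) and Ier3 (-0.63 ± 0.21) had adjusted p of 0.0698, 0.0604 and 0.118 at 4 h. The second Egr2 probe set was called (-0.77 ± 0.13, adjusted p = 0.00286), as was the mean of both (-0.61, adjusted p = 0.00646). Ier5 was called without WT LPS 1 h replicate 1 or 2 (adjusted p = 0.0147 and 0.0143). Egr1 and Egr3, at -0.02 ± 0.22 and 0.20 ± 0.31, had 95% intervals of -0.49 to 0.46 and -0.46 to 0.85. Stromal markers had 6 of 10 higher and 0 lower in the same interaction, macrophage markers 0 of 12 higher and 2 lower, and their part in it was not tested. The median was -0.38 for the members and 0.08 for all genes.

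**Figure D4:**
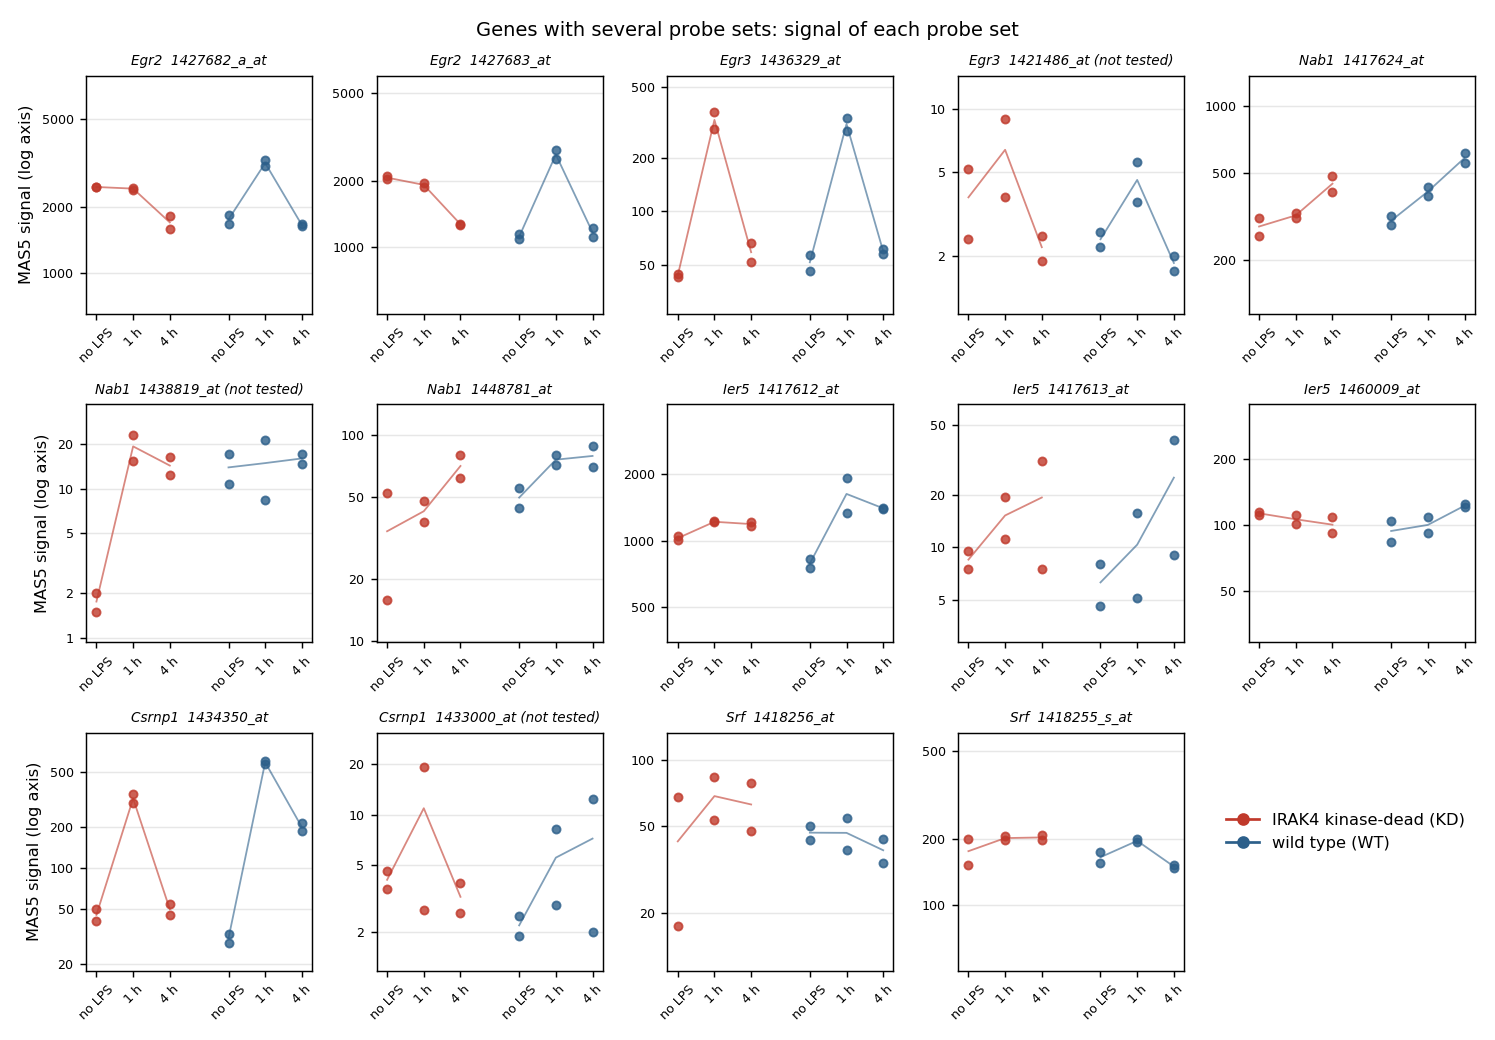
MAS5 signal (log axis) of every probe set of the 6 members with several, KD left of WT, with no LPS, 1 h and 4 h of LPS from left to right. Points are arrays and lines join group means; both Egr2 probe sets have the same shape, whereas the Ier5 probe set 1460009_at stays between 83.7 and 124.

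The wider immediate early list, chosen by its known biology with earlier results of these data in view, is given for comparison. Of 38 other immediate early genes, 22 rose and 2 fell in KD at 1 h (median 0.76), where 6.69% of all genes were called. In WT 24 rose and 1 fell (median 1.02), where 7.18% were called. From 1 h to 4 h, 20 fell and 1 rose in KD, and 16 fell and 3 rose in WT (medians -0.61 and -0.61), where 10.7% of all genes were called in KD and 19.3% in WT. Between strains, 0 were higher and 3 lower in KD at 1 h, and 4 were higher and 9 lower at 4 h, where 1.57% of all genes were called at 1 h and 6.91% at 4 h. The 3 were Plk2 (-0.80 ± 0.11, adjusted p = 0.000731), a cell cycle kinase, Dusp4 (-0.77 ± 0.11, adjusted p = 0.00138), a MAP kinase phosphatase, and Zfp36 (-0.54 ± 0.12, adjusted p = 0.0228). Fos, the AP-1 subunit, was among the higher ones at 4 h (3.24 ± 0.12, adjusted p = 9.65e-12). In WT it fell by 3.01 ± 0.12 at 4 h over no LPS (adjusted p = 8.12e-13). The 9 lower ones included Nr4a3 (-2.51 ± 0.40, adjusted p = 0.000769), Pim1 (-1.25 ± 0.09, adjusted p = 1.04e-07) and Trib1 (-1.19 ± 0.24, adjusted p = 0.00541). Of 21 genes for signalling from Toll-like receptor 4 to Srf and Elk factors, 2 rose and 2 fell in KD at 1 h and 2 rose and 1 fell in WT, beside the same 6.69% and 7.18%. At 4 h over no LPS, 3 rose and 3 fell in KD, where 12.6% of all genes were called, and 7 rose and 6 fell in WT, where 20.8% were called. Transcript levels of kinases say nothing of their activity.

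The genes with profiles most like those of 5 members were sought by Pearson's r of log2 values over the 12 arrays, among 7916 genes with a mean log2 signal of at least 6. The arrays fall into 6 groups, so these values are descriptions. Egr1 was closest to Dusp5 (r = 0.982), a phosphatase of ERK, Eif5 (0.975), a translation initiation factor, and Fosl2 (0.965), an AP-1 subunit. Among the members themselves, Egr1 and Egr3 had r = 0.976. Ier3 was closest to Pim1 (0.982), a serine/threonine kinase, Tnfaip3 (0.979), the NF-κB feedback inhibitor A20, and Pde4b (0.976), a cyclic AMP phosphodiesterase. Csrnp1 was closest to Slc20a1 (0.984), a phosphate transporter, Zfp36 (0.975), which promotes decay of cytokine mRNAs, and Tnfsf9 (0.965), a ligand of the tumour necrosis factor family. Egr2 had looser neighbours, Serpinb9b (0.92), Micu2 (0.912) and Commd8 (0.906), and Nab2 had Tagln (0.908), Golga3 (0.906) and Slc1a4 (0.881).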

How the data were processed

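Total RNA of 12 macrophage cultures was extracted with RNeasy kits, labelled with the NuGEN Ovation protocol and hybridised to 1-colour arrays, per the labels' protocols. The authors deposited 1 linear intensity per probe set and array, computed with MAS5 per the submitters' processing notes, whose version is not given in the sources. Each array's mean after trimming 2% from each end was 150.0, so the intensities were used as deposited. Precision is limited by the number of arrays.

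Of 45101 probe sets, 64 array controls were left out. The annotation gave 1 symbol to 34958, several to 932 and none to 9211, and 0 symbols changed when updated through Entrez identifiers (34754 matched). Values became log2(signal + 4.4), the 20th percentile of all values being 4.4, which understates changes of dim genes. Probe sets above the array median on at least 2 arrays were tested with limma 3.58.1 in R 4.3.3 (6 group means, variance prior with a trend). Benjamini-Hochberg adjustment ran within each of 11 comparisons over 27931 probe sets. A gene was represented by its brightest tested probe set, preferring identifiers without the suffix _x_at or _s_at. On simulated arrays for WT at 1 h (27931 probe sets), 34% of changes of log2 size 1 and 69% of size 2 were recovered. Only 100 probe sets of each size were changed there, a smaller share than was called in the data. Recovery in the data can therefore differ.

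The members and lists were chosen with earlier results of these data known. All members are named, with the 3 genes most like 5 of them. Of the other lists, the rule allowed up to 4 called genes per comparison, and fewer are printed. Alternatives were quantile normalization, no or a stricter filter (75th percentile), pseudocounts of 1 and 23.4, no trend, the comparison's arrays alone, probe set means, a replicate block and leaving out each array.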

Additional observations from a re-analysis of the deposited data

Results flagged for a closer look

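A total of 3 responses to LPS differed between the strains by the interaction test, with limma adjusted p over all tested probe sets. The response of Egr2 at 1 h was lower in KD than in WT by a log2 difference of -0.87 (adjusted p = 0.00511), a call lost with a variance prior without a trend (adjusted p = 0.361). The response of Csrnp1 differed by -1.37 at 1 h (adjusted p = 0.0414) and by -2.40 at 4 h (adjusted p = 0.000128). Its 1 h call was lost on omitting any of 10 of the 12 arrays and in 4 of 9 other settings, with adjusted p up to 0.361, while its 4 h call held in all of them. Groups of 2 arrays are too small for a test of outlying arrays, and none was made.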

How the results depend on the processing

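Of 110 member results, 39 were called, of which 25 stayed called in all alternatives run and 30 in every fit with 1 array omitted. Sign changes occurred in 0 of the 39. The number of called members moved by over 1.5 times in these settings. With a variance prior without a trend it was 1 for KD at 4 h over no LPS, and 0 for KD over WT without LPS, for KD over WT at 1 h and for the interaction at 1 h. With no filter it was 1 for KD over WT at 1 h and 1 for the interaction at 1 h, which was also 1 after quantile normalization. On the arrays of the comparison alone it was 1 for KD over WT without LPS, 1 for the interaction at 1 h and 2 for the interaction at 4 h. For the interaction at 4 h it was 3 with the stricter filter and 2 with probe set means. Except where the construction of the setting shows it (fewer or more probe sets tested, fewer arrays), the cause was not tested.

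With 1 array omitted, the called members numbered 4 to 5 in KD at 1 h over no LPS, 6 to 6 in WT at 1 h, 2 to 4 in KD at 4 h, 4 to 5 in WT at 4 h, and 5 to 6 at 4 h over 1 h in either strain. They numbered 1 to 3 for KD over WT without LPS, 0 to 4 at 1 h and 2 to 2 at 4 h, and 1 to 3 for the interaction at 1 h and 1 to 2 at 4 h. With the replicate number as a block, KD over WT at 1 h had 1 called member, with Csrnp1 at an adjusted p of 0.0505 and Egr2 at 0.0546, and Nab1 in KD at 4 h over 1 h had 0.0503. The numbers did not pair the arrays, since deviations of same-numbered arrays correlated at -0.0682 to 0.0401 over 15 pairs of groups, and the block changed no other call of a member.

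For the 71 results that were not called, 43 values in the alternatives had the opposite sign. These are counted by result and setting, so 1 result can count more than once. Srf in WT at 1 h over no LPS was 0.056 after quantile normalization and 0.113 with probe set means. Probe set means also gave Ier5 0.31 in WT at 4 h over 1 h and 0.055 for KD over WT at 1 h, and Nab1 0.109 for the interaction at 4 h. The others changed sign when 1 array was omitted. For KD at 1 h over no LPS the log2 range was Srf -0.012 to 1.71. For WT at 1 h over no LPS the log2 range was Srf -0.24 to 0.21. For KD at 4 h over no LPS the log2 range was Ier2 -1.23 to 0.70, Csrnp1 -0.005 to 0.26 and Srf -0.14 to 1.58. For WT at 4 h over no LPS the log2 range was Nab2 -0.051 to 0.15. For KD at 4 h over 1 h the log2 range was Srf -0.47 to 0.21. For WT at 4 h over 1 h the log2 range was Ier5 -0.45 to 0.067. For KD over WT without LPS the log2 range was Egr1 -0.43 to 0.27, Nab1 -0.23 to 0.042, Nab2 -0.30 to 0.017, Ier2 -0.098 to 1.35 and Srf -1.22 to 0.50. For KD over WT at 1 h the log2 range was Egr3 -0.08 to 0.23, Nab2 -0.54 to 0.039 and Ier2 -0.54 to 0.014. For KD over WT at 4 h the log2 range was Egr1 -0.25 to 0.047, Egr2 -0.059 to 0.13, Egr3 -0.19 to 0.14 and Ier2 -1.30 to 0.63. For the interaction at 1 h the log2 range was Nab2 -0.40 to 0.18 and Ier3 -0.39 to 0.032. For the interaction at 4 h the log2 range was Egr1 -0.36 to 0.33 and Ier2 -1.92 to 0.004.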

Other observations

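Relatives of the members were mostly dim. Of 6 (Egr4, Csrnp2, Csrnp3, Ier5l, Wt1 and Ier3ip1), 3 passed the filter, and Csrnp2 was the one that was called. It fell by 0.44 ± 0.12 in KD at 1 h (adjusted p = 0.043) and by 0.54 ± 0.12 in WT at 4 h (adjusted p = 0.00458), opposite to Csrnp1. Of all genes 6.69% were called in KD at 1 h, 3.01% lower, and 20.8% in WT at 4 h, 13% lower.

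Cytoskeletal genes that are classical Srf targets were counted too. Of 14 tested, 1 rose and 1 fell in KD at 1 h, and 0 rose and 1 fell in WT at 1 h, where 6.69% of all genes were called in KD and 7.18% in WT. At 4 h over no LPS, 6 rose and 0 fell in KD, where 12.6% of all genes were called, and 2 rose and 1 fell in WT, where 20.8% were called. Between strains, 0 were higher and 3 lower in KD without LPS, where 6.09% of all genes were called. At 1 h 0 were higher and 2 lower in KD (1.57% of all genes called). At 4 h 1 was higher and 0 lower in KD (6.91% called). In the interaction at 4 h, 3 had a higher response in KD and 0 a lower one, where 3.94% of all genes were called. Beside them stood 6 of 10 stromal markers, whose part in it was not tested.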
